A study of Drosophila melanogaster with 31 samples.

Results

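The germline differentiation and oocyte patterning genes are 8 genes chosen by name, nanos, osk, bcd, grk, orb, bam, bgcn and gcl, out of 16785 genes with RefSeq transcripts in the tables. Poly(A) RNA of Drosophila melanogaster was sequenced from ovaries and heads in 7 groups of 3 libraries each, which gives 21 libraries, and the counts of all transcripts of a gene were summed. Levels are given as cpm, the counts of a gene scaled by all counts that the library assigned to RefSeq transcripts and transposons. The ovaries came from mod07570/+ females, modL8/+ females and mod07570/L8 transheterozygotes, the last with both copies of modulo (mod) mutant. The mod07570 allele is a hypomorphic P-element insertion, modL8 is amorphic, with sequence lost towards the tip of chromosome arm 3R. Neither allele is viable when homozygous, but females with one copy of each lay eggs that develop. The heads came from mod07570/+ flies, from mod07570/L8 flies, and from flies with or without ectopic eye outgrowths (EEO), which the study obtained by crossing mod07570/L8 females to KrIf-1 males. The age of the flies and the sex of those whose heads were taken are not given in the sources used here. A question behind the ovary comparison was what the loss of Mod, a homolog of mammalian Nucleolin, does to RNA levels in the female germline.

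In the fly ovary, germline stem cells divide at the tip of each ovariole, and a daughter that leaves the niche becomes a cystoblast. The cystoblast needs Bam and its partner Bgcn to divide into a cyst, and Nanos together with Pumilio keeps the stem cells undifferentiated. One cell of the cyst becomes the oocyte, in which Orb, a CPEB family RNA-binding protein, controls the localisation and translation of mRNAs. Nurse cells then supply the oocyte with bcd mRNA, which marks the anterior of the embryo, osk mRNA, which builds the pole plasm at the posterior, and grk mRNA, whose TGF-alpha-like product signals to the follicle cells around the oocyte. Gcl, a nuclear envelope associated protein, acts in the embryo to form the primordial germ cells.

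The targeted gene was low in the ovaries and heads labelled mod07570/L8 alone, but less so in the heads of the KrIf-1 crosses, whose labels name the same genotype. In ovaries, mod stood at 335, 342 and 324 cpm in mod07570/+, at 449, 458 and 462 cpm in modL8/+, and at 12.3, 10.3 and 11.4 cpm in mod07570/L8. In heads it stood at 62.6, 122 and 58.7 cpm in mod07570/+ and at 18.2, 20.0 and 18.5 cpm in mod07570/L8. The libraries labelled mod07570/L8 with or without EEO held 37.1 to 52.8 cpm with EEO and 37.1 to 49.8 cpm without. These values lie above the mod07570/L8 heads and below the mod07570/+ heads. In the study's description, mod07570/L8 is the genotype of the mothers of these flies.

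Some properties of the libraries bear on the results below. Total estimated counts ranged from 12820086 to 22695680 per library. In ovaries, the summed level of 18 follicle cell marker genes ranged from 4410 to 4421 cpm in mod07570/+, from 9477 to 9685 cpm in modL8/+ and from 27452 to 28114 cpm in mod07570/L8. All 18 were called higher in mod07570/L8 than in mod07570/+, where 38.4% of all features were called higher. Their median log2 fold change was 2.61, and the chorion genes Cp16 (3.61), Cp18 (3.53) and Cp19 (3.42) led. The 7 sheath muscle markers summed to 126 to 127 cpm, 90.6 to 98.3 cpm and 256 to 266 cpm in the same order. Sums of 10 germline markers were close in the 3 genotypes, at 3991 to 4062 cpm, 3799 to 3823 cpm and 3836 to 3925 cpm. Single germline markers moved both ways, however. Between mod07570/L8 and mod07570/+, 5 of the 10 were called higher and 3 lower, against 38.4% and 38.9% of all features. Their log2 fold changes ran from -0.46 to 0.64. No defining marker of the follicle cells or of the germline was at 0 in any ovary library. The part of these differences in marker sums in the results on the germline genes was not tested. In whole ovaries, a change in the number of cells of a type and a change in RNA per cell cannot be told apart. The 8 head tissue markers, photoreceptor and neuronal genes, summed to 13066 to 26181 cpm in heads, with none at 0, and to 147 to 163 cpm in ovaries, while 9 testis markers summed to no more than 5.24 cpm in any library. Among the heads, replicate 2 of mod07570/+ stood apart from the other 11, with 483 cpm of the germline markers against 25.4 to 42.0 cpm, and the comparisons that use this library are given with and without it.

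The mod07570/L8 ovaries had 49.4% of the bam RNA of mod07570/+ ovaries, less bcd and gcl RNA, more orb, grk and nanos RNA, and a rise of bgcn from a very low level. Relative to mod07570/+, edgeR with Benjamini-Hochberg adjustment over all 8314 features called 4 of the 8 genes higher and 3 lower in mod07570/L8, and osk was not called. All 8 were tested, but bgcn reached the minimum of 1 cpm in 3 libraries only through the mutant, where it is high. Of all features tested, 38.4% were called higher and 38.9% lower, 77.3% in either direction, and most genes of these ovaries were therefore called. The median log2 fold change was 0.09 over the 8 genes and -0.003 over all features. Replicates in these ovaries varied little, which brings small differences past the threshold, and with a fold change above 2 required as well only bgcn was called. The 49.4% of bam is a ratio in cpm. After TMM scaling its log2 fold change was -0.93, short of 2-fold, and the alternatives reached -1.02, so this result for bam depends on the setting.

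**Figure D1:**
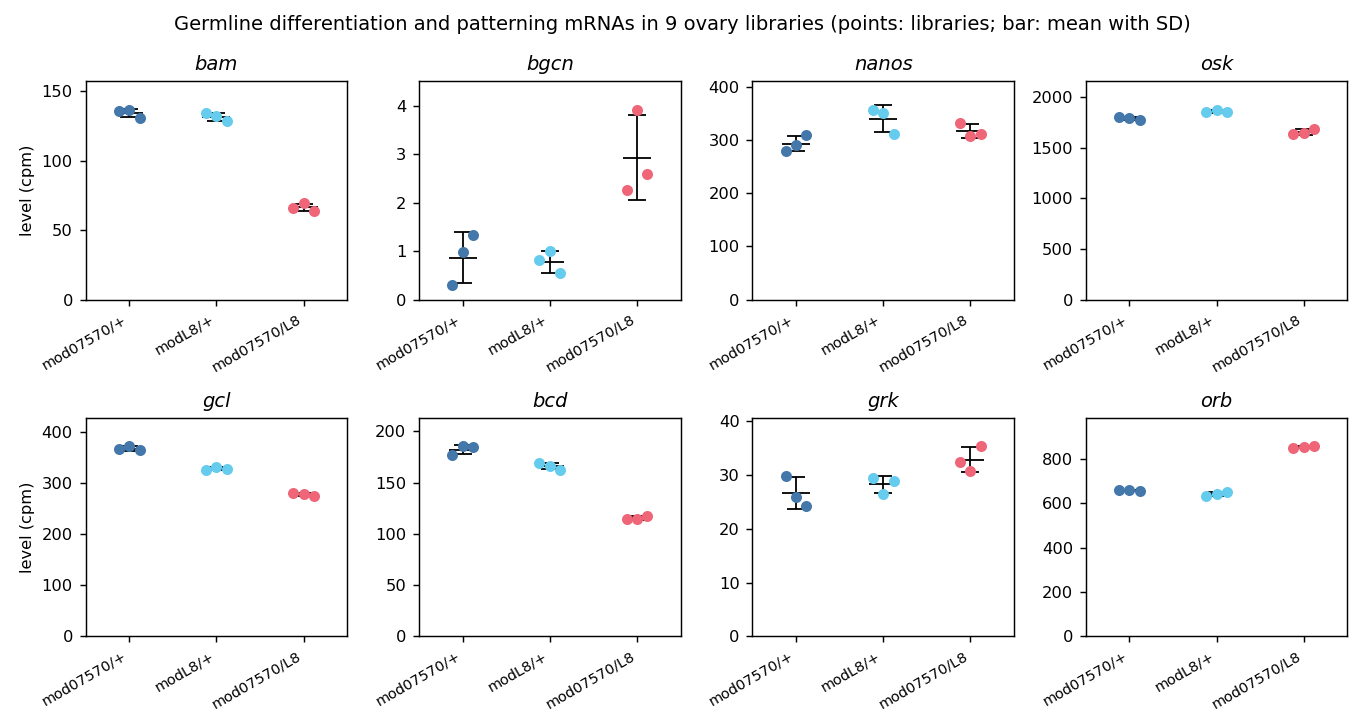
Level in cpm of each of the 8 genes in the 9 ovary libraries, with 3 points per genotype and the mean with SD as bars. For bam, bcd, gcl and orb the mod07570/L8 libraries lie apart from both heterozygous groups, for example 63.9 to 69.4 cpm of bam against 128 to 137 cpm.

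Among the genes of cystoblast differentiation, bam fell and bgcn rose. The bam gene switches the stem cell daughter to differentiation, and its RNA stood at 135, 137 and 131 cpm in mod07570/+, at 134, 132 and 128 cpm in modL8/+, and at 65.6, 69.4 and 63.9 cpm in mod07570/L8. The mutant libraries lay below all 6 heterozygous ones, and the 2 heterozygous groups overlapped. Its log2 fold change against mod07570/+ was -0.93 (SE 0.039, adjusted p = 1.22e-14), the largest fall among the 8 genes. All counts of bam were unique to its single listed transcript. The 15 alternative settings and left-out libraries gave values from -1.02 to -0.89.

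The RNA-helicase-related partner of Bam, bgcn, was near the lower end of what was measured. It had 4, 16 and 22 estimated counts in mod07570/+, which is 0.308, 0.975 and 1.33 cpm, and 0.816, 0.999 and 0.544 cpm in modL8/+. In mod07570/L8 it had 40, 72 and 44 estimated counts, which is 2.27, 3.92 and 2.60 cpm. The mutant libraries lay above all heterozygous libraries, although replicate 1 of mod07570/+ held only 4 counts. The log2 fold change was 1.78 (SE 0.338, adjusted p = 7.62e-05), and it ranged from 1.44 to 2.19 over 14 alternatives. As bgcn passed the filter on low counts only through the mutant libraries, its test is not independent of that filter. Without the filter the log2 fold change was 1.76 (adjusted p = 7.91e-09). In release 6 of the genome annotation bgcn overlaps Pym, which stood at 82.4, 74.9 and 62.5 cpm in mod07570/+, modL8/+ and mod07570/L8, and without a stated strand of counting reads of overlapping genes cannot be told apart.

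The 15 genes listed for cystoblast differentiation, which include bam and bgcn, moved both ways. Of the 15, 7 were called higher and 6 lower, where 38.4% of all 8314 features tested were called higher and 38.9% lower. This list and those below were chosen with earlier results of these data known. The largest fall was that of tut, which encodes an RNA-binding protein that works with Bam and Bgcn in the male germline, from 7.28 cpm (SD 0.186, n = 3) in mod07570/+ to 0.952 cpm (SD 0.238, n = 3) in mod07570/L8. Its log2 fold change was -2.84 (SE 0.218, adjusted p = 2.32e-10), and modL8/+ ovaries held 6.35 cpm. The deadenylase gene twin fell from 395 to 284 cpm (log2 fold change -0.38). Upward calls were led, after bgcn, by the DEAD-box helicase gene vas, from 143 to 209 cpm (0.64), and pum, the partner of Nanos in translational repression, from 367 to 477 cpm (0.47). The rise of vas did not hold on counts unique to single transcripts (log2 fold change -0.14, adjusted p = 0.717).

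The translational repressor gene nanos and the pole plasm gene osk changed little. In mod07570/+ ovaries nanos stood at 280, 290 and 308 cpm, in modL8/+ at 357, 351 and 311 cpm, and in mod07570/L8 at 331, 308 and 310 cpm. The mutant values overlapped both heterozygous groups. The log2 fold change against mod07570/+ was 0.20 (SE 0.031, adjusted p = 7.30e-06) on the TMM scale, which sets each library relative to the bulk of its features. Levels of osk, the highest of the 8 in every ovary library, were 1805, 1794 and 1774 cpm in mod07570/+, 1852, 1878 and 1852 cpm in modL8/+, and 1636, 1642 and 1691 cpm in mod07570/L8. The mutant libraries were lowest in cpm, but after TMM scaling the log2 fold change was -0.02 (SE 0.021, adjusted p = 0.366). With scaling to total counts it was -0.11 and past the threshold (adjusted p = 2.43e-05). With TMM but without the filter on low counts it was -0.04 and also called (adjusted p = 0.0378). The call of osk thus depends on the scaling and on the filter.

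The germ cell gene gcl and the anterior determinant bcd fell. In mod07570/+ ovaries gcl stood at 367, 372 and 363 cpm, in modL8/+ at 325, 331 and 328 cpm, and in mod07570/L8 at 280, 278 and 275 cpm. These groups did not overlap, and modL8/+ lay between the other two. The log2 fold change of gcl between mod07570/L8 and mod07570/+ was -0.31 (SE 0.023, adjusted p = 1.08e-10), and on the 4.89% to 7.25% of its ovary counts that were unique to one transcript it was -0.08 and not called (adjusted p = 0.445). For bcd the values were 177, 186 and 184 cpm in mod07570/+, 169, 167 and 163 cpm in modL8/+, and 114, 114 and 117 cpm in mod07570/L8. The mutant libraries were again the lowest, with a log2 fold change of -0.57 (SE 0.033, adjusted p = 2.67e-12).

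Of the 15 genes listed for pole plasm and germ cell formation, gcl and osk among them, 5 were called higher and 7 lower. The shares over all features were 38.4% and 38.9%. The methyltransferase gene csul fell from 105 to 68.1 cpm (log2 fold change -0.53), and pgc, which holds back transcription in early germ cells, fell from 260 to 190 cpm (-0.36). The Valois gene vls, whose product works with the csul methyltransferase, was at 31.3 cpm in mod07570/+ and 36.8 cpm in mod07570/L8 (0.33). On unique counts the difference of pgc was 0.15 and not called (adjusted p = 0.421).

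The oocyte genes grk and orb rose. The ligand gene grk had 29.9, 25.9 and 24.2 cpm in mod07570/+, 29.5, 26.5 and 28.9 cpm in modL8/+, and 32.4, 30.8 and 35.3 cpm in mod07570/L8. The mutant libraries lay above the heterozygous ones, with replicate 2 of mod07570/L8 close to replicate 1 of mod07570/+, and the log2 fold change was 0.40 (SE 0.077, adjusted p = 9.53e-05). All counts of grk were unique. For orb the values were 661, 658 and 653 cpm in mod07570/+, 633, 643 and 652 cpm in modL8/+, and 847, 853 and 856 cpm in mod07570/L8. There was no overlap between mutant and heterozygous ovaries, and the log2 fold change was 0.47 (SE 0.020, adjusted p = 2.65e-14). Only 6 to 20 counts of orb per ovary library were unique to one transcript, and on these the difference was 0.55 and not called (adjusted p = 0.308).

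**Figure D2:**
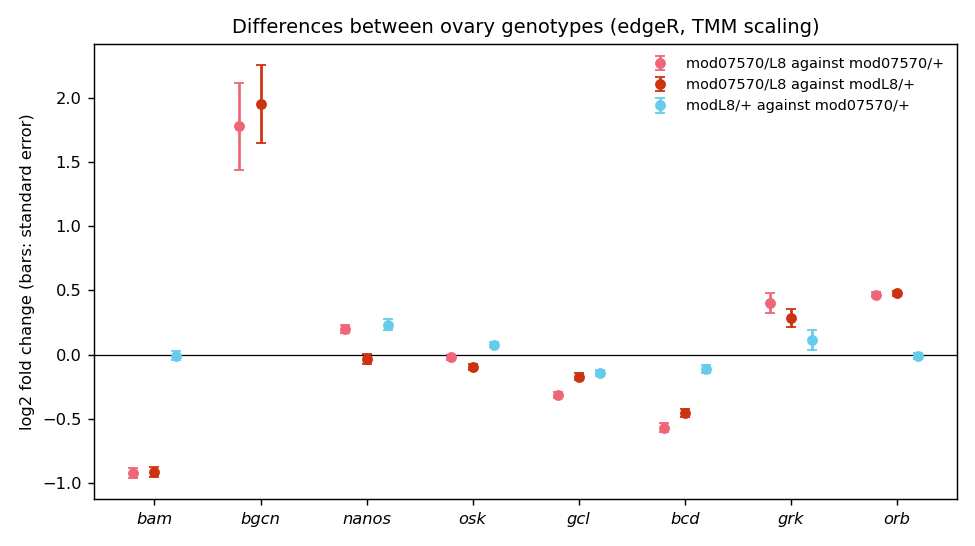
Log2 fold change with its standard error for the 8 genes in the 3 comparisons between ovary genotypes, from edgeR with TMM scaling. Both comparisons of mod07570/L8 show bam near -0.9, orb near 0.5 and bgcn above 1.7, whereas bam and orb lie near 0 between the heterozygotes, where bgcn was too low to be tested.

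The other genes of these steps, taken from lists, also went both ways. Of 16 genes for oocyte specification and mRNA transport, 5 were called higher and 11 lower, against 38.4% and 38.9% of all features. Their median log2 fold change was -0.21. The dynein heavy chain gene Dhc64C rose from 131 to 303 cpm (1.30) and the spectraplakin gene shot from 107 to 210 cpm (1.06), whereas the helicase gene spn-E fell from 287 to 173 cpm (-0.64), the recombination gene okr from 74.3 to 50.6 cpm (-0.46) and the heterochromatin protein gene rhi from 46.3 to 31.6 cpm (-0.46). Of the 20 tested genes for translational control of maternal mRNAs, 8 were called higher and 8 lower, against the same shares of all features. The gene of Smaug, a repressor of nanos mRNA, fell from 2464 to 1663 cpm (smg, -0.48), the exon junction genes btz and mago, which osk mRNA localisation requires, fell by 0.37 and 0.14 on the log2 scale, and otu rose from 634 to 713 cpm (0.26). The call of btz was lost on unique counts (-0.71, SE 0.473, adjusted p = 0.200).

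In the list for the dorsoventral signal that grk sends, 10 of 12 genes were called higher and 2 lower. Of all features, 38.4% were called higher and 38.9% lower. The median log2 fold change of the 12 genes was 0.71. The homeodomain gene mirr rose from 4.99 to 14.7 cpm (1.64), Egfr, which encodes the receptor of Gurken, from 18.3 to 52.2 cpm (1.60), and the sulfotransferase gene pip from 1.68 to 4.28 cpm (1.42). On unique counts pip was not called (0.78, SE 0.484, adjusted p = 0.169). These 3 are expressed in follicle cells, whose 18 markers rose in the same libraries, and the part of the follicle cells in their rise was not tested. The Toll ligand gene spz fell from 160 to 100.0 cpm (-0.59). The cargo receptor gene cni, needed for the export of Gurken, was at 56.9 and 48.9 cpm (-0.13, adjusted p = 0.0203), a call that was lost when either of mod07570/+ replicates 2 and 3 or of mod07570/L8 replicates 1 and 2 was left out (adjusted p from 0.0519 to 0.0993).

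Against the second heterozygous control, modL8/+, bam, bcd, orb, grk and gcl kept their directions and calls, while nanos and osk did not. The 2 comparisons share the mod07570/L8 libraries and are not independent. edgeR called 3 of the 8 genes higher and 4 lower, where 36.2% of the 8209 features tested were called higher and 36.0% lower. The log2 fold changes were -0.92 for bam (SE 0.040), 1.96 for bgcn (SE 0.306), -0.46 for bcd (SE 0.034), -0.17 for gcl (SE 0.024), 0.29 for grk (SE 0.069) and 0.48 for orb (SE 0.021). All modL8/+ libraries were below 1 cpm of bgcn, so it was tested only through the mutant libraries and dropped out when any one of these was left out. Without the filter its value was 1.93 (adjusted p = 5.20e-10). For osk the value was -0.10 (SE 0.021, adjusted p = 5.36e-04), and for nanos it was -0.03 (SE 0.040, adjusted p = 0.486). Leaving out modL8/+ replicate 3, the lowest of its group in nanos, gave -0.09 and a call for nanos (adjusted p = 0.0132), and leaving out modL8/+ replicate 1 gave 0.002 with no call. The scaling mattered too. With all libraries, nanos was called lower under scaling to total counts (-0.10, adjusted p = 0.0317) and to the germline markers (-0.13, adjusted p = 0.0147).

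The heterozygous controls differed from each other in part of these genes. Of 7 genes tested, nanos (log2 fold change of modL8/+ against mod07570/+ 0.23, SE 0.041, adjusted p = 1.03e-04) and osk (0.08, SE 0.020, adjusted p = 0.00423) were called higher, and bcd (-0.11, SE 0.031, adjusted p = 0.00618) and gcl (-0.14, SE 0.025, adjusted p = 1.08e-04) lower. In this comparison 21.3% of 8071 features were called higher and 20.3% lower. The values were -0.01 for bam (SE 0.035, adjusted p = 0.867), -0.01 for orb (SE 0.023, adjusted p = 0.727) and 0.11 for grk (SE 0.080, adjusted p = 0.274). The difference of nanos between the 2 controls was thus as large as that between mod07570/L8 and mod07570/+. In bam, by contrast, the controls differed by less than their spread, at 98.0% of the level, while the mutant held 49.4% of the mod07570/+ level and 50.4% of the modL8/+ level.

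Single transcripts of orb, bcd, nanos, gcl and bgcn also differed in estimated counts between mod07570/L8 and mod07570/+ ovaries. The tables list 22 transcripts of the 8 genes, of which 17 reached a mean of 1 cpm in a group and 16 were tested. edgeR called 4 of them higher and 4 lower, where 18.8% of all 16378 sequences tested were called higher and 19.1% lower. How eXpress divides shared reads among isoforms affects these values, since few counts are unique to an isoform.

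The ovary form of orb was the transcript of 4862 bases, at 618, 611 and 616 cpm in mod07570/+ and 839, 843 and 832 cpm in mod07570/L8, with no overlap (log2 fold change 0.53, SE 0.016, adjusted p = 1.78e-05). A form of 2957 bases was assigned 40.9, 44.6 and 33.2 cpm in mod07570/+ and 2.60, 7.41 and 20.9 cpm in mod07570/L8, but also 18.2 to 51.5 cpm in modL8/+, and its log2 fold change of -1.86 was not called (SE 0.706, adjusted p = 0.0893). Without mod07570/L8 replicate 3 it was -2.89 (adjusted p = 0.0139). The third form, of 8899 bases, had 1.78 to 4.82 cpm in these 6 ovary libraries. In heads it held nearly all orb counts, at 18.4 to 37.2 cpm over the 12 libraries, while the ovary form was assigned no more than 1.23e-05 cpm in any head except mod07570/+ replicate 2, where it had 82.8 cpm.

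The shorter nanos transcript, of 2292 bases, took 76.8% to 78.6% of nanos counts in mod07570/+ and 80.8% to 83.7% in mod07570/L8. Its level went from 215, 223 and 242 cpm to 268, 257 and 253 cpm (log2 fold change 0.27, SE 0.047, adjusted p = 0.00657). That of the 2349-base transcript was 64.9, 67.4 and 66.1 cpm and then 63.7, 50.2 and 57.4 cpm (-0.13, SE 0.088, adjusted p = 0.295), and the shorter form alone was called. The 2 leading bcd transcripts both fell, that of 2499 bases from 129, 134 and 120 cpm to 78.6, 78.5 and 80.3 cpm (-0.61, SE 0.048, adjusted p = 4.17e-04) and that of 2514 bases from 38.7, 40.5 and 48.1 cpm to 31.6, 27.2 and 29.0 cpm (-0.46, SE 0.106, adjusted p = 0.0189). The call of the latter was lost without mod07570/L8 replicate 2 (adjusted p = 0.0628) or replicate 3 (adjusted p = 0.0599). The 2464-base gcl transcript, with 97.6% to 98.5% of gcl counts in these 6 libraries, fell by 0.33 on the log2 scale (SE 0.019, adjusted p = 1.44e-04), but not on its unique counts (-0.09, adjusted p = 0.454).

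In bgcn, the transcript of 4144 bases took 46.7% to 54.4% of the counts in mod07570/+ and 99.8% to 100% in mod07570/L8 (log2 fold change 2.79, SE 0.588, adjusted p = 0.0136). This transcript passed the filter only through the mutant libraries, with 0.164 to 0.723 cpm in mod07570/+, and was not tested when any one of them was left out. In mod07570/+ no count was unique to either bgcn transcript, and in mod07570/L8 only 4 or 5 were. The 2 osk transcripts listed have the same length of 2869 bases and received identical counts in every library, with none unique, so they cannot be told apart. The single grk transcript was called higher here too (0.38, adjusted p = 0.0374), but that call was lost when any of 5 libraries was left out, both mod07570/+ replicates 2 and 3 and each mod07570/L8 replicate (0.30 to 0.43, adjusted p from 0.0562 to 0.112). At the gene level, grk was called under each alternative except the 2-fold threshold.

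**Figure D3:**
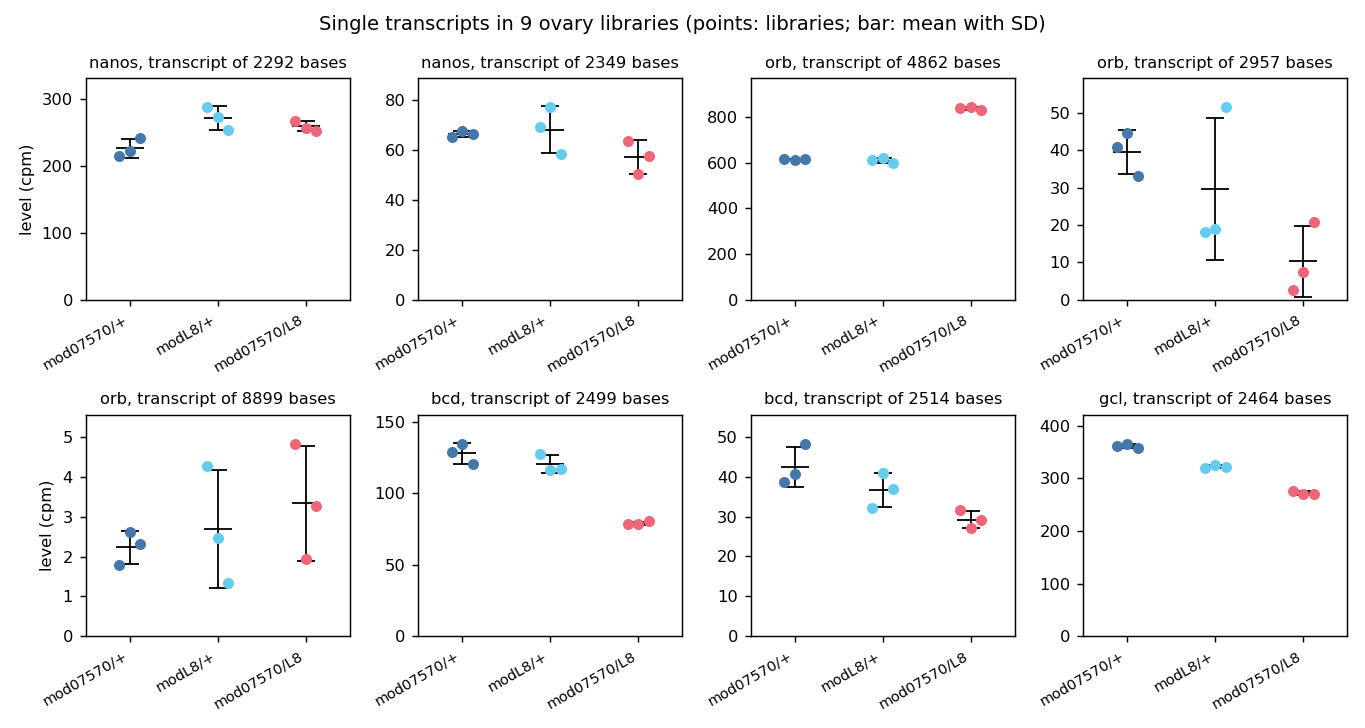
Level in cpm of 8 single transcripts of nanos, orb, bcd and gcl in the 9 ovary libraries, with the mean and SD as bars and each panel on its own scale. The 4862-base orb transcript lies at 832 to 843 cpm in mod07570/L8, above 599 to 621 cpm in the heterozygotes, while the 2957-base form spreads widely within genotypes.

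Compared per length of transcript, as FPKM, osk was the most abundant of the 8 in ovaries and bgcn the least. In mod07570/+ the mean FPKM was 787 for osk, 192 for gcl, 158 for nanos, 158 for orb, 91.9 for bam, 84.4 for bcd, 21.5 for grk and 0.238 for bgcn (n = 3 each). The neighbours nanos and orb did not differ beyond their spread, at 153 to 166 FPKM and 155 to 159 FPKM. In mod07570/L8 ovaries orb came second at 192 FPKM, and bam, at 44.2 FPKM, came below bcd, at 52.4 FPKM. The order depends on the length measure. By counts per kilobase of the longest transcript instead of FPKM, bam and bcd changed places in mod07570/+, and orb, whose longest transcript is 8899 bases, came after osk, nanos and gcl in mod07570/L8, at 95.8 cpm per kilobase.

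In most heads bam, bgcn, nanos and osk were at or near 0 and bcd was low but above 0, whereas grk, orb and gcl were present at higher levels. Leaving aside mod07570/+ replicate 2, the 11 other head libraries held 0 to 0.398 cpm of bam, 0 to 0.353 cpm of bgcn, 0 to 0.936 cpm of nanos, 0 to 3.35 cpm of osk and 0.663 to 2.62 cpm of bcd, where 3 counts correspond to at most 0.234 cpm. The 3.35 cpm of osk and the 0.936 cpm of nanos were both in mod07570/+ replicate 3. The same libraries held 15.5 to 33.0 cpm of grk, 17.2 to 27.7 cpm of gcl and 18.6 to 37.5 cpm of orb. For grk, the heads of the KrIf-1 crosses, at 24.6 to 33.0 cpm, overlapped the ovaries, at 24.2 to 35.3 cpm, whereas mod07570/+ and mod07570/L8 heads, at 15.5 to 22.0 cpm, lay below every ovary library. In the release 6 annotation grk overlaps Akap200, whose mean was 175 cpm in mod07570/L8 heads, 211 cpm in mod07570/+ heads, 252 cpm without EEO and 280 cpm with EEO. In ovaries Akap200 went the other way from grk, with means of 699 cpm in mod07570/+, 628 cpm in modL8/+ and 586 cpm in mod07570/L8. The part of Akap200 in the head values of grk was not tested.

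**Figure D4:**
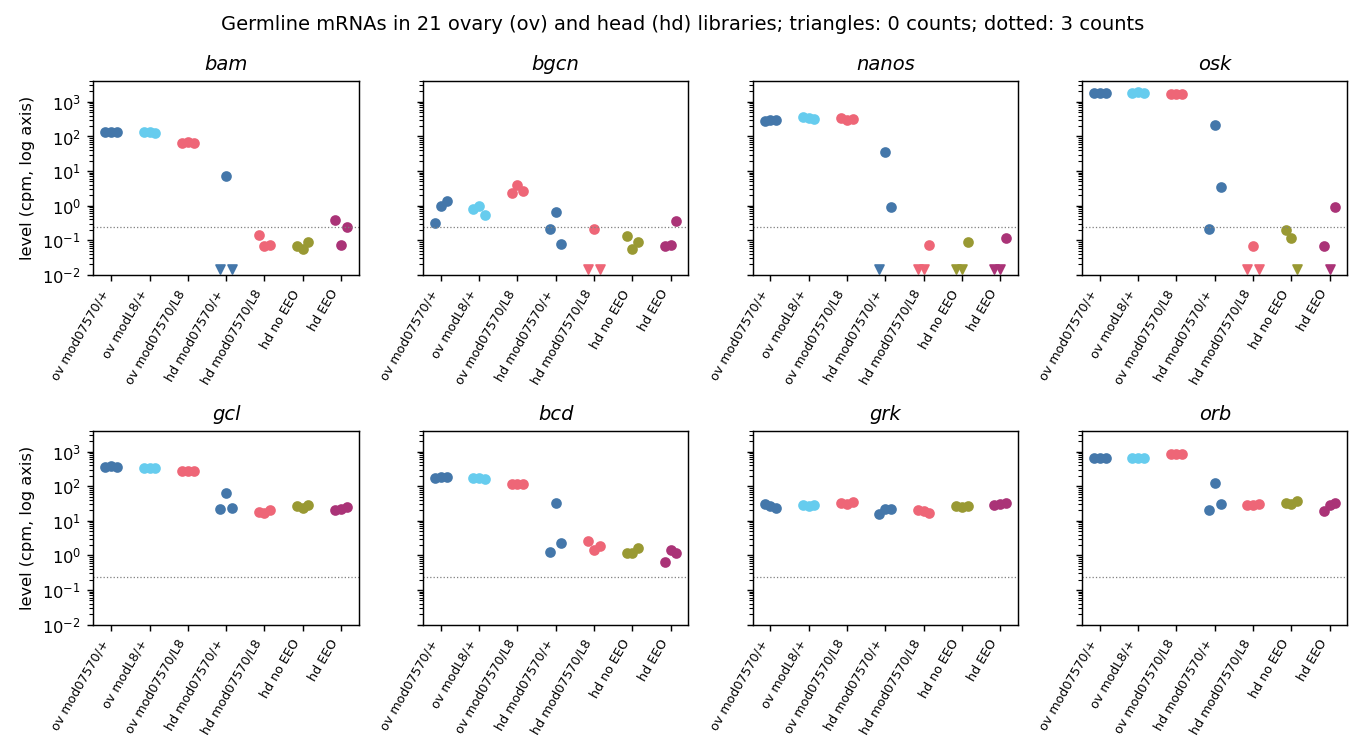
Level in cpm on a log axis of the 8 genes in all 21 libraries, with libraries at 0 drawn as triangles and a dotted line at the largest value that 3 counts have in a library. One head library, mod07570/+ replicate 2, lies above the other heads for bam, nanos, osk, bcd, orb and gcl, and for grk the heads with or without EEO lie within the range of the ovaries while the other heads lie below it.

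The head library mod07570/+ replicate 2 held more of several germline transcripts than any other head. Among these, bam, nanos and osk were at or near 0 in the other heads, while orb and gcl were present there. It held 216 cpm of osk, 35.6 cpm of nanos, 31.9 cpm of bcd, 122 cpm of orb, 62.4 cpm of gcl and 6.99 cpm of bam. Its excess over the mean of replicates 1 and 3, as a share of the mod07570/+ ovary level, was 12.0% for nanos, 12.0% for osk, 16.5% for bcd, 13.7% for grk, 14.6% for orb, 10.9% for gcl and 5.21% for bam. Over the 10 germline markers the median of this share was 11.7%, with a range from 3.32% to 15.4%. The follicle cell markers summed to 112 cpm in this library and to a mean of 118 cpm in replicates 1 and 3, so they showed no excess. The source of this RNA was not tested.

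**Figure D5:**
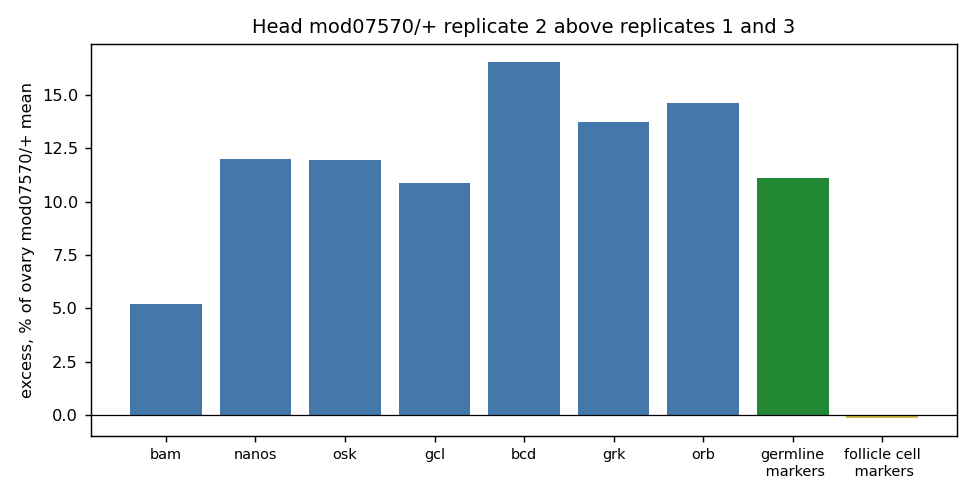
Excess of head mod07570/+ replicate 2 over the mean of replicates 1 and 3, as a percentage of the mean level in mod07570/+ ovaries, for 7 of the genes and for the summed germline and follicle cell markers. The bars of nanos, osk and gcl lie between 10.9% and 12.0%, near the 11.1% of the germline markers, and the follicle cell markers are at -0.13%. The gene bgcn is left out because its ovary level was only 0.871 cpm.

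Between mod07570/L8 and mod07570/+ heads, none of the 8 genes was called. Only bcd, gcl, grk and orb passed the filter on low counts, and edgeR and DESeq2 each called 0 of these 4, with 1, gcl, below an unadjusted p of 0.05 in each. Of all 10025 features tested, 1.60% were called higher and 1.91% lower, 160 and 191 features, and without mod07570/+ replicate 2 these were 207 and 254. The 3 values of gcl were 21.6, 62.4 and 23.3 cpm in mod07570/+ and 18.3, 17.2 and 20.3 cpm in mod07570/L8, with a log2 fold change of -0.85 (SE 0.348, adjusted p = 0.290). Without mod07570/+ replicate 2 it was -0.29 (SE 0.105, adjusted p = 0.188). The same omission turned the log2 fold change of bcd from -2.40 to 0.17 and that of orb from -0.85 to 0.18. That of grk was -0.008 with the library and 0.01 without it. Neither fit gave a call in these genes. Head replicates spread more than ovary replicates, with a biological coefficient of variation of 0.202 against 0.0283.

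Heads with EEO did not differ by a call from heads without EEO in any of the 4 genes tested. edgeR and DESeq2 each called 0, with 1, grk, below an unadjusted p of 0.05 in each, and 0.492% of 10162 features were called higher and 0.0295% lower. With EEO grk stood at 29.3, 30.0 and 33.0 cpm, and without EEO at 27.4, 24.6 and 26.5 cpm. The groups did not overlap, and the log2 fold change was 0.26 (SE 0.083, adjusted p = 0.373). The values were -0.34 for orb (SE 0.186, adjusted p = 0.613), -0.18 for gcl (SE 0.103, adjusted p = 0.620) and -0.30 for bcd (SE 0.326, adjusted p = 0.765). Heads of mod07570/+ and mod07570/L8 flies held 15.5 to 22.0 cpm of grk, below the 24.6 to 33.0 cpm of the KrIf-1 crosses, a difference of cross that was not tested.

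Between ovaries and heads of mod07570/+ flies, edgeR called bcd, gcl, orb, bam and nanos higher in ovaries, where 42.2% of 10325 features were called higher and 47.1% lower. The log2 differences were 5.30 for bam (SE 1.31), 3.42 for bcd (SE 1.10), 2.78 for gcl (SE 0.380), 4.08 for nanos (SE 1.56) and 2.96 for orb (SE 0.622). On counts unique to one transcript, edgeR called orb lower in ovaries (-5.12, adjusted p = 2.38e-06). Only 6 to 13 orb counts per mod07570/+ ovary library were unique, against 121 to 209 per mod07570/+ head. Of the 7 genes tested, bam, nanos and osk passed the filter only through the ovaries, so the calls of bam and nanos are not independent of it. As these 3 were at or near 0 in the other heads, their fitted differences depend on the prior count and are no bounds. For osk the difference of 4.11 was not called (SE 1.93, adjusted p = 0.0822). Without head replicate 2 it was 8.97 (SE 0.511, adjusted p = 2.55e-06), that of nanos 8.28, that of bam 13.63, that of bcd 5.64, that of orb 3.63 and that of gcl 2.97. The calls of nanos and bcd, in turn, were lost when head replicate 1 or 3 was left out instead, with adjusted p from 0.0542 to 0.105, and that of nanos also without any one ovary replicate (adjusted p from 0.0801 to 0.0821). Scaling matters between tissues. The median log2 difference of all features was -0.14 with TMM and 0.48 with total counts, and grk, at -0.17 (adjusted p = 0.222) and 0.44 (adjusted p = 0.0469), stayed close to that median under both. Leaving out any one head replicate moved the fitted difference of grk further below 0, and it was then called (-0.59 to -0.49, adjusted p from 0.00711 to 0.0153). DESeq2 with all libraries also called grk lower in ovaries (-0.35, adjusted p = 0.0274). In cpm, however, these ovaries held 24.2 to 29.9 of grk and these heads 15.5 to 22.0. With a head left out, no feature could pass the filter of 3 libraries through heads alone. The features tested fell from 10325 to between 8142 and 8146, and their median log2 difference rose to between 0.09 and 0.15. The part of this change in the values of grk was not tested.

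The difference of the mod07570/L8 effect between the 2 tissues was fitted as an interaction over 12 libraries, in which all 8 genes were tested. Of all 10635 features, 17.9% were called higher and 6.45% lower. For nanos (8.71, SE 2.76, adjusted p = 0.0415) and osk (11.06, SE 3.15, adjusted p = 0.0257) the term passed the threshold, but both genes passed the filter only through the ovaries. The mod07570/L8 heads held 0 to 0.0734 cpm of nanos and 0 to 0.0697 cpm of osk, so no fold change was measurable in heads and these values do not show that the tissues differ. Without head mod07570/+ replicate 2 they were 4.10 (adjusted p = 0.0295) and 5.79 (adjusted p = 0.00452). The other genes were not called with that library, and without it their values were -0.75 for bcd (adjusted p = 0.0324), -4.90 for bam (adjusted p = 0.0336), 0.37 for grk (adjusted p = 0.0851), 0.27 for orb (adjusted p = 0.0682), 2.79 for bgcn (adjusted p = 0.186) and -0.03 for gcl (adjusted p = 0.833). Of these, bam and bgcn were likewise at or near 0 in heads.

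The genes most like each of the 8 across libraries were found by Pearson's r of log2(cpm + 1), as a description. Over the 21 libraries, which differ mainly between ovary and head, the nearest gene was rpk for nanos, BicC for osk, Cdk1 for bcd, CG10254 for orb, His2Av for bam and Nup133 for gcl, each at r above 0.99, a value that 114 to 937 of 8950 genes reached. For grk the nearest was sqh (r = 0.926) and for bgcn Dhc36C (r = 0.929), and no gene reached 0.99 with either. Within the 9 ovary libraries, where 3 genotypes set the pattern, the nearest genes were Top2 for bcd (r = 0.999), Lasp for osk (r = 0.998), alphaTry for bam (r = 0.997), Nup98-96 for gcl (r = 0.997), Tep4 for orb (r = 0.997), Crk for nanos (r = 0.964), fon for bgcn (r = 0.963) and Hmu for grk (r = 0.940).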

How the data were processed

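Paired-end reads of 21 poly(A) RNA libraries were mapped by the authors with Bowtie 2 to a set of RefSeq transcripts and transposon sequences, and eXpress then gave values per sequence (versions not given in the sources used here). Fragments that fit several sequences were divided by the authors' eXpress run into deposited estimated counts, with deposited effective counts corrected further for bias. The deposited unique counts are fragments that map to 1 sequence alone, and isoforms of a gene share most fragments. The deposited FPKM values come from the same run by the authors. Of 34437 RefSeq transcripts, 33997 were matched to genes by accession, and unmatched ones held at most 0.505% of a library's counts. The H3K9me3 peak lists were not used here, since gene positions in their build were not at hand.

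Estimated counts were summed per gene and rounded. Features of at least 1 cpm in at least 3 libraries of a comparison were tested with edgeR 4.0.16 (quasi-likelihood, TMM) in R 4.3.3, with Benjamini-Hochberg adjustment over all features and a threshold of 0.05. The standard error is the log2 fold change divided by the square root of its F statistic. The labels number the replicates, and the study names them biological replicates. The members and gene lists were chosen with earlier results of these data known. From each list, the text names the 3 largest rises and the 3 largest falls past the threshold in mod07570/L8 against mod07570/+ ovaries; marker lists are given by sums and counts. Genes overlapping a member come from a release 6 RefSeq table. The alternatives tried were DESeq2 1.42.0, counts of the unique and of the effective kind, scaling by total counts or by TMM without transposons, omission of the filter, the replicate number as a block, a 2-fold threshold, 1 fit of all groups of a tissue, and each library left out. Scaling to the germline marker list was added after seeing the data. The tests were tried on simulated data.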

Additional observations from a re-analysis of the deposited data

Results flagged for a closer look

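The interaction term of edgeR over 12 libraries, which compares the mod07570/L8 effect in ovaries with that in heads, passed the threshold for nanos and osk, although neither gene had a measurable fold change in heads. Both passed the filter on low counts only through the ovaries. The difference of the log2 fold changes was 8.71 for nanos (SE 2.76, adjusted p = 0.0415) and 11.06 for osk (SE 3.15, adjusted p = 0.0257), while 17.9% of 10635 features were called higher in this term and 6.45% lower. Both genes moved little in ovaries, and in heads their counts were at or near 0 except in mod07570/+ replicate 2, with 35.6 cpm of nanos and 216 cpm of osk, so fitted values of this size depend on the prior count, are no bound and do not show that the tissues differ. Without that library the differences were 4.10 for nanos (adjusted p = 0.0295) and 5.79 for osk (adjusted p = 0.00452), which then rest on 0.936 cpm of nanos and 3.35 cpm of osk in mod07570/+ replicate 3. Without any one ovary library the call of nanos was lost (adjusted p from 0.0660 to 0.0762), as it was without any one mod07570/L8 head (0.0990 to 0.111). That of osk was lost without any one mod07570/+ ovary (0.0556 to 0.0561) or any one mod07570/L8 head (0.0651 to 0.0824). Leaving out head replicate 2 also called bcd (-0.75, adjusted p = 0.0324) and bam (-4.90, adjusted p = 0.0336) in the opposite direction to the full fit. Leaving out head mod07570/+ replicate 1 called grk (0.49, adjusted p = 0.0331) and orb (1.71, adjusted p = 0.0323). The call of bgcn appeared without mod07570/+ head replicate 3 (4.27, adjusted p = 0.0320) or mod07570/L8 head replicate 2 (7.46, adjusted p = 0.0335), from at most 0.670 cpm in any head.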

How the results depend on the processing

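In mod07570/L8 against mod07570/+ ovaries, 112 of 118 alternative values of the 8 genes kept direction and call. Few counts are unique to an isoform, so unique counts left 6 genes tested, with 2 called higher and 2 lower among 2012 and 2039 of all features. There, BicC was at 0.58, norpA at -0.42, pgc at 0.15 and vas at -0.14, and btz, pip and ovo were not called. With a 2-fold threshold besides, 1 gene was higher and 0 lower (994 and 259 features). Without single libraries osk ranged from -0.036 to 0.0055, the latter without mod07570/L8 replicate 1. Leaving out single libraries gave 2922 to 3050 features higher and 2950 to 3028 lower, with the members at 4 and 3 throughout.

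Against modL8/+, unique counts gave 1 gene higher and 2 lower (1785 and 1763 features) and the 2-fold threshold 1 and 0 (861 and 141). Left-out libraries gave 2 to 3 higher and 4 to 5 lower (2645 to 2844 and 2697 to 2830 features), the lower count of 2 where bgcn was not tested. Without single libraries nanos ranged from -0.090 to 0.0020. Scaling to the germline markers gave 2282 features higher and 3831 lower, 37.3% of calls higher instead of 50.1%.

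Between the heterozygotes, the 2-fold threshold gave 0 genes higher and 0 lower (175 and 194 features) and unique counts 1 and 0 (695 and 699), with bcd at 0.12, orb at 0.39 and gcl at 0.066. Scaling to the germline markers gave 1 gene lower and 2488 features higher against 1030 lower, 70.7% of calls higher instead of 51.2%, with orb at 0.045 and bam at 0.048. Without single libraries orb ranged from -0.023 to 0.00013 and bam from -0.034 to 0.0086.

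In heads, 0 of the 8 genes was called under any alternative run, and without the filter on low counts all 8 were tested. For mod07570/L8 the 160 features higher and 191 lower became 92 higher with the 2-fold threshold, 323 and 324 with DESeq2, 249 higher with all heads in 1 fit, and 23 to 285 higher and 42 to 254 lower without single libraries. The value of grk was 0.0032 with all heads in 1 fit and that of orb 0.32 on unique counts. Without single libraries grk ranged from -0.072 to 0.061, bcd from -2.92 to 0.17 and orb from -1.22 to 0.18, the upper ends of bcd and orb without mod07570/+ replicate 2. For EEO the 50 and 3 features became 31 higher with unique counts, 201 and 53 with DESeq2, 1 lower with the 2-fold threshold, 5 lower with all heads in 1 fit, and 20 to 191 higher and 0 to 40 lower without single libraries, with gcl at 0.24 on unique counts.

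Between ovary and head, DESeq2 called 2 genes higher and 1 lower (3962 and 5213 features) and unique counts 4 and 1 (3198 and 4596). Left-out libraries gave 3 to 6 higher and 0 to 1 lower (3521 to 4015 and 3286 to 4657 features). There grk was at 0.44 with total counts and orb at -5.12 on unique counts, which leave out nearly all orb counts of ovaries. The interaction gave 0 genes higher on unique counts, 1 with DESeq2, and 0 to 4 higher and 0 to 2 lower without single libraries. Its 1902 features higher and 686 lower became 1130 and 197 with the 2-fold threshold, 980 and 243 on unique counts, 1274 lower with DESeq2, and 1579 to 2268 and 499 to 1793 without single libraries. Without single libraries bcd ranged from -0.75 to 2.39, bam from -4.90 to 4.08 and gcl from -0.030 to 0.79, each lowest without head mod07570/+ replicate 2.

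Of the single transcripts, 1 was higher and 0 lower with the 2-fold threshold (1459 and 511 sequences) and 2 and 2 on unique counts (2284 and 2189). With left-out libraries 2 to 4 were higher and 3 to 4 lower (2287 to 2580 and 2414 to 2633 sequences). The rarer gcl transcript was at 0.39 on unique counts, and without single libraries it ranged from -0.24 to 0.086 and a bcd transcript of low level from -0.89 to 0.26. With a pseudocount of 0.1, 15 and 19 of the 24 nearest genes were the same over 21 and 9 libraries. The cause was not tested.

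The replicate numbers did not pair the samples in any comparison (not every pair of same-numbered libraries had a correlation over 0.1). With the replicate number as a block, the 8 genes stayed at 4 higher and 3 lower in mod07570/L8 against mod07570/+ ovaries (3125 and 3169 features). They stayed at 3 and 4 against modL8/+ (2924 and 2931), at 2 and 2 between the heterozygotes (1598 and 1517) and at 0 in heads. The interaction kept 1 call, bgcn, in place of nanos and osk (1747 features higher and 592 lower). Between ovary and head the block called osk as well (4221 features higher and 4734 lower). Each mod07570/L8 head correlated best with the mod07570/+ head of its own number (r = 0.190, 0.0496 and 0.213), a hint from the data only.

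Depth limits bgcn in all libraries and bam, nanos and osk in heads.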
